A study of Homo sapiens with 3 samples.

Results

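Cadherins and EPCAM are the adhesion molecules by which epithelial and mesenchymal cell states are told apart. Here 8 genes of this kind were followed, of 20162 protein-coding genes in the annotation: CDH1, CDH2, CDH3, CDH4, CDH5, CDH6, CDH11 and EPCAM. They are a part of the classical cadherins, with EPCAM, and not a whole gene family. They were not named by a peak value, but both peak lists had already been analysed. The 11 other classical cadherins are counted further below. A peak was assigned to a gene if it lay within 5 kb of any annotated transcription start site (TSS) of that gene or touched its gene body, and the closest peak of each list within 150 kb was recorded as well. In this way 33 of 21639 EZH2 peaks and 7 of 19039 PHF13 peaks were assigned.

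The data were ChIP-seq peak lists from Panc-1, a human pancreatic ductal adenocarcinoma cell line, which asked where PHF13, a chromatin reader with a PHD finger, and EZH2, the catalytic subunit of the Polycomb repressive complex PRC2, occupy the genome. The cells were labelled wildtype, no treatment was listed for any library, and each chromatin preparation came from 1 plate crosslinked with EGS followed by paraformaldehyde and formaldehyde. There was 1 PHF13 library, 1 EZH2 library and 1 input library, and the input served as the control for both peak lists. With 1 library per antibody no difference could be tested, so peaks and counts are described without p-values, and the PHF13 antibody was a polyclonal raised for the study.

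Classical cadherins hold cells together through calcium-dependent contacts of their extracellular repeats, and their cytoplasmic tails bind catenins that link the junction to actin. In epithelial-mesenchymal transition (EMT), E-cadherin (CDH1) and EPCAM are typically lost while N-cadherin (CDH2) and other mesenchymal cadherins are gained. PRC2 places the repressive mark H3K27me3, mostly at CpG-rich gene starts, and is known as a repressor of CDH1 in carcinoma cells.

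The EZH2 peak nearest the CDH2 start lay within 5 kb of a TSS but covered none. The sequence under this peak is shown first, for its base composition. It was read from GRCh37 on the strand of the gene, outside untranslated exons, with CpG dinucleotides in capitals.
CDH2, EZH2 peak, intron, chr18:25755658-25755957, minus strand: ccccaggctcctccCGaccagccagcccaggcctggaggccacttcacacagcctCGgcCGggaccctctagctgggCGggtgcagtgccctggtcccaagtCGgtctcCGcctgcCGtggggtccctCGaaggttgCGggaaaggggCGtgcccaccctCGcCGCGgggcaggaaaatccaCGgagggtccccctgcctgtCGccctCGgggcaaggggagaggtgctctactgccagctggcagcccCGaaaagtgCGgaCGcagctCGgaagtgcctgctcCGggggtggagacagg
The stretch held 21 CpG dinucleotides in 300 bp, where the median of the 300 bp windows at all EZH2 summits was 5, and 14 for EZH2 peaks within 5 kb of a protein-coding TSS. Its GC content was 71.0%.

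The next sequence is the stretch of CDH4 covered by a PHF13 and an EZH2 peak in the same place, with the E-box letters CAGGTG or CACCTG in capitals. The E-box is the motif bound by SNAI and ZEB factors, which repress CDH1 in EMT.
CDH4, bases shared by both peaks, intron, chr20:59908587-59908687, plus strand: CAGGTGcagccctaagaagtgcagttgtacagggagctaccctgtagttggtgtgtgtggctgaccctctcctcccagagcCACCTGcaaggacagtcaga
The stretch held no CpG and a pair of E-boxes, at positions 1 and 82 counted from its first base. An E-box in either orientation occurred in 10.4% of 101 bp windows at all PHF13 summits and in 11.5% of those at EZH2 summits.

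EZH2 peaks lay near a TSS of 7 of the 8 genes, all except CDH4, where 23.6% of all protein-coding genes had one. A PHF13 peak lay within 5 kb of a TSS of 1 of the 8, CDH1, against 21.0% of all protein-coding genes, and both kinds of peak lay near the TSSs of that 1 gene, against 5.33%. The share of members with EZH2 was thus above the background share, and the counts for PHF13 and for both rested on a single peak. The genes were chosen with these lists already analysed, so the counts describe the 8 genes and were not tested.

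**Figure D1:**
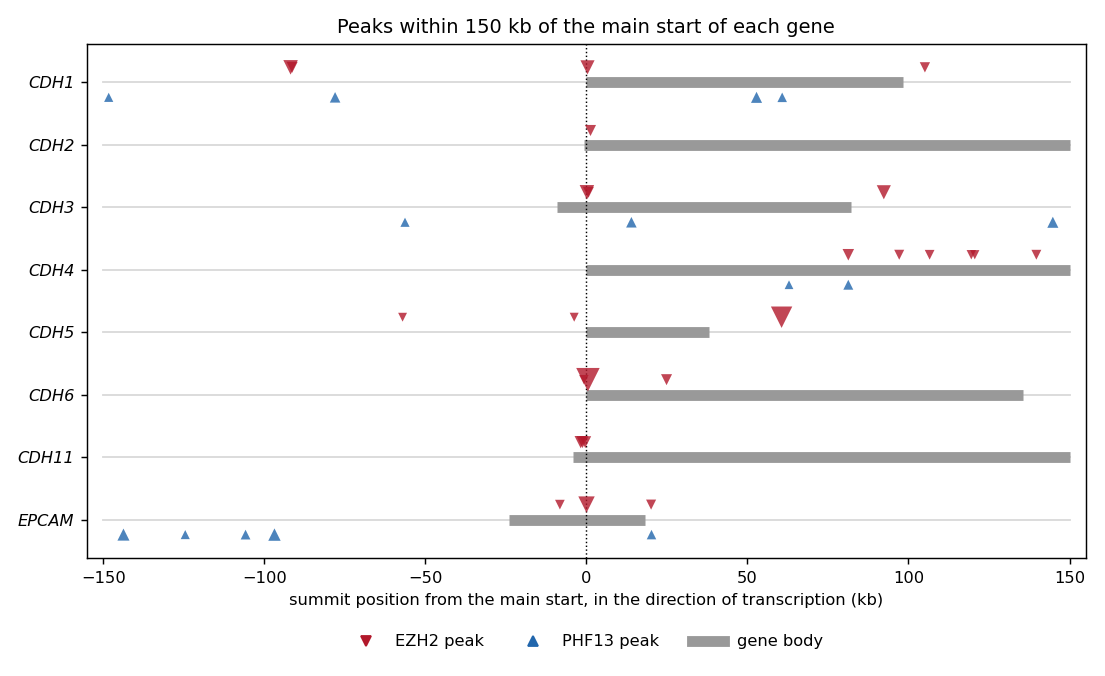
Peaks of the EZH2 list (red, pointing down) and the PHF13 list (blue, pointing up) by summit position from the main start of each gene, in kb along the direction of transcription; the marker area grows with -log10 q and the grey bar is the gene body. EZH2 markers sit at or beside the start in 7 genes and are absent there in CDH4, while no PHF13 marker sits at a main start. CDH1 and CDH3 are neighbours, so each appears in the row of the other.

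The epithelial genes CDH1, CDH3 and EPCAM each had an EZH2 peak over an annotated start, as had CDH6 and CDH11. CDH1 encodes E-cadherin, the adherens junction protein of epithelia. Its EZH2 peak spanned chr16:68771136-68772005, 870 bp, with the summit 357 bp inside the gene in an intron, 4.69-fold enrichment over the local background and a -log10 q of 10.8. At the summit 34 fragments were stacked (95% exact Poisson interval 23.5 to 47.5, which covers counting error only). By -log10 q this peak stood above 86.0% of the EZH2 list, and by width above 91.1%.

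CDH3 encodes P-cadherin, an epithelial cadherin of basal cells, and its gene ends 9824 bp upstream of CDH1. A pair of EZH2 peaks lay at its main start. The wider one, chr16:68678750-68679594, covered that start and was 845 bp long with 3.99-fold enrichment, -log10 q 11.6 and 45 fragments at the summit (32.8 to 60.2). The narrower one, 248 bp long at chr16:68679749-68679996, had 2.91-fold enrichment and -log10 q 4.84. Both summits also lay in the annotated antisense gene CDH3-AS1. CDH3 and CDH1, although adjacent, were therefore covered by separate EZH2 peaks, and no EZH2 peak lay in the body of CDH1 beyond its start.

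EPCAM encodes a membrane glycoprotein of simple epithelia that is used to mark carcinoma cells. Its EZH2 peak, chr2:47596155-47597279, was 1125 bp long and had its summit 48 bp past the main start, in the untranslated first exon, with 4.55-fold enrichment, -log10 q 16.3 and 53 fragments (39.7 to 69.3). The CpG observed/expected ratio in 500 bp at this summit, 0.964, was the highest of all 33 member EZH2 peaks. A weaker peak of 503 bp, chr2:47587971-47588473, had its summit at -8218 bp from the main start, within the longer gene record, with 2.76-fold enrichment and -log10 q 2.68. Its 200 bp at the summit held an AP-1 site (TGACTCA or TGAGTCA, read on both strands), which 2.31% of EZH2 windows of that length held. Among the 33 member EZH2 peaks 2 held one, this peak included.

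Of the cadherins of mesenchymal and other tissues, CDH2, CDH6, CDH11 and CDH5 had EZH2 within 5 kb of a start as well, and CDH4 had not. CDH2 encodes N-cadherin, the cadherin of neural and mesenchymal cells. Its EZH2 peak did not cover a start but lay 1007 bp inside from the nearest TSS and 1137 bp from the main start, at chr18:25755466-25755957. It was 492 bp long, with 3.61-fold enrichment, -log10 q 4.92 and 23 fragments (14.6 to 34.5). These values were below those at CDH1, EPCAM and the wider CDH3 peak, although the counting intervals of CDH1 and of CDH3 overlapped that of CDH2, and above those of the narrower CDH3 peak in fold enrichment and -log10 q. It was the only peak of either list in the gene body of 245 kb.

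CDH6 encodes a type II cadherin of the kidney and of several carcinomas and had the strongest EZH2 peak of the 8 genes. The peak spanned chr5:31193387-31195045, 1659 bp across the start, with 5.29-fold enrichment, -log10 q 37.7 and 104 fragments at the summit (85.0 to 126). It ranked 513 in the EZH2 list, and by its highest -log10 q within 5 kb CDH6 ranked 114 of the 4759 protein-coding genes with an EZH2 peak there. The counting interval did not overlap that of EPCAM, the next gene in order, but the local background at CDH6, 18.8 fragments, was above the 10.9 at EPCAM, and its part in the height was not tested. Beside it lay a peak of 214 bp, chr5:31193004-31193217, with 2.05-fold enrichment and -log10 q 2.35, and within the gene lay another, chr5:31218571-31218772, with 3.87 and 4.83. The start of CDH6 is overlapped by a pair of unnamed annotated genes, ENSG00000254138 and ENSG00000289601.

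CDH11 encodes a type II cadherin of osteoblasts and mesenchymal cells. A chain of 3 EZH2 peaks lay upstream of its main start, at chr16:65156250-65156452, chr16:65156619-65157383 and chr16:65157536-65158035. Their fold enrichments were alike, at 3.35, 3.34 and 3.50, with -log10 q of 6.36, 6.33 and 7.09 and with 33, 33 and 34 fragments. Together they covered 1468 bp, more than the single peak of CDH1, and they began 284 bp upstream of the main start. The peak nearest the main start covered another annotated start, that of a protein-coding transcript.

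CDH5 encodes VE-cadherin of endothelial junctions. Its EZH2 peak, chr16:66396623-66396894, had the lowest -log10 q of those near a start, with 2.41-fold enrichment, -log10 q 1.69 and 20 fragments (12.2 to 30.9) over a local background of 7.72. It lay 3699 bp upstream, outside any gene, and only 3.43% of the EZH2 list had a lower -log10 q. The main start of CDH5 was also the poorest in CpG of the 8, with an observed/expected ratio of 0.255 in 1000 bp.

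In order of their highest -log10 q near a start the genes were CDH6, EPCAM, CDH3, CDH1, CDH11, CDH2 and CDH5, which placed them above 97.6%, 78.6%, 68.9%, 66.7%, 53.8%, 38.9% and 1.98% of protein-coding genes with an EZH2 peak there. The epithelial genes thus stood between CDH6 and CDH11. From EPCAM down to CDH5, neighbours in this order had overlapping counting intervals for the fragments at the summit. These intervals leave out the local background, on which -log10 q also depends. CDH1 and CDH11 both had 34 fragments, over local backgrounds of 6.465 and 9.0. The order was not tested.

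**Figure D2:**
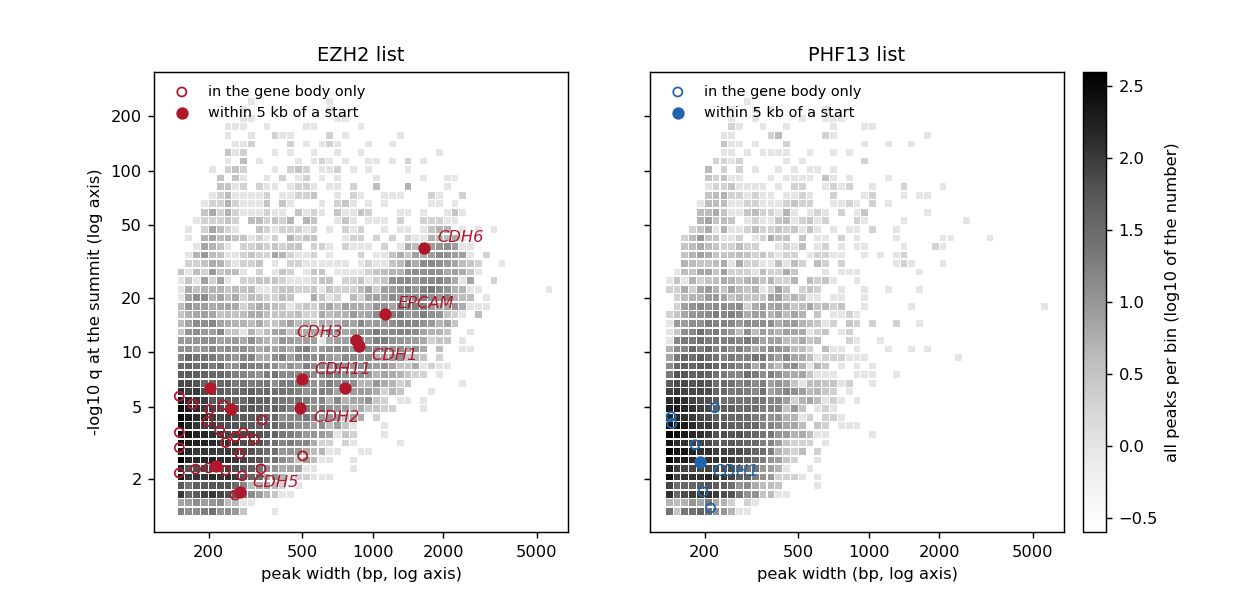
Peak width in bp against -log10 q at the summit, both on log axes, for the EZH2 list (left) and the PHF13 list (right); grey squares count all peaks and colored circles are peaks of the 8 genes, filled within 5 kb of a start and open in the gene body only. The strongest filled EZH2 circles of CDH6, EPCAM, CDH3 and CDH1, which carry the gene names, lie on the band of wide peaks at the upper right, CDH5 lies near the lower edge, and the PHF13 circles lie among the narrow peaks.

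The 11 EZH2 peaks near starts came from 7 of these genes, 3 of them from CDH11, so they were not independent. By median they were wider than the gene-start peaks of the list, though not each of them was. Their width had a median of 500 bp (203 to 1659) against 300 bp for the 6479 EZH2 peaks within 5 kb of a protein-coding TSS, while the median fold enrichment was 3.50 against 3.20 and the median -log10 q 6.36 against 5.13. Of the 11, 2 were longer than 1 kb, those of CDH6 and EPCAM, and 21.2% of the gene-start EZH2 peaks were. The CpG observed/expected ratio at the summit had a median of 0.672 (0.239 to 0.964) in the 11 against 0.593. All 33 member EZH2 peaks had single-copy sequence at the summit, as judged by the median number of genomic copies of its 24-mers. The share was 67.9% for the whole list and 86.2% for its gene-start peaks.

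CDH4 departed from the other 7 genes. It encodes R-cadherin, a cadherin of retina and brain, and had the most CpG-dense main start of the 8, with an observed/expected ratio of 0.977, yet no EZH2 peak lay within 5 kb of a TSS. The EZH2 peak closest to any TSS, chr20:60156681-60156851, lay 11490 bp from an internal one with 3.17-fold enrichment and -log10 q 5.17, and the one closest to the main start, chr20:59908538-59908687, lay 81221 bp from it. Instead, 20 EZH2 peaks were spread through the introns of this gene of 688 kb, with fold enrichments from 1.98 to 3.83, -log10 q from 1.63 to 5.72 and widths from 150 to 338 bp. The CpG ratio at the summits of the 20 had a median of 0.338 (0.119 to 0.460), against 0.271 for all EZH2 peaks.

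These intronic peaks gave CDH4 the most EZH2 peaks per length of the 324 protein-coding genes over 500 kb. There were 2.91 EZH2 peaks per 100 kb, against a median of 0.316 for genes of this length, 1.11 for chromosome 20 and 2.54 for the next gene, SORCS2. PHF13 showed no such position, with 4 peaks in CDH4, 0.581 per 100 kb and rank 92 of 324. The EZH2 peaks fell 9 in the first 50% of the gene and 11 in the second, and the local background differed between these stretches, with a median of 6.56 fragments in the first and 15.2 in the second against 8.75 for EZH2 peaks elsewhere on chromosome 20. Fold enrichments were 2.58 or higher in the first stretch and at most 2.59 in the second. The part of this background in the number of peaks was not tested. Of the 20, 3 had a -log10 q of 5 or more, against 35.8% of all EZH2 peaks.

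**Figure D3:**
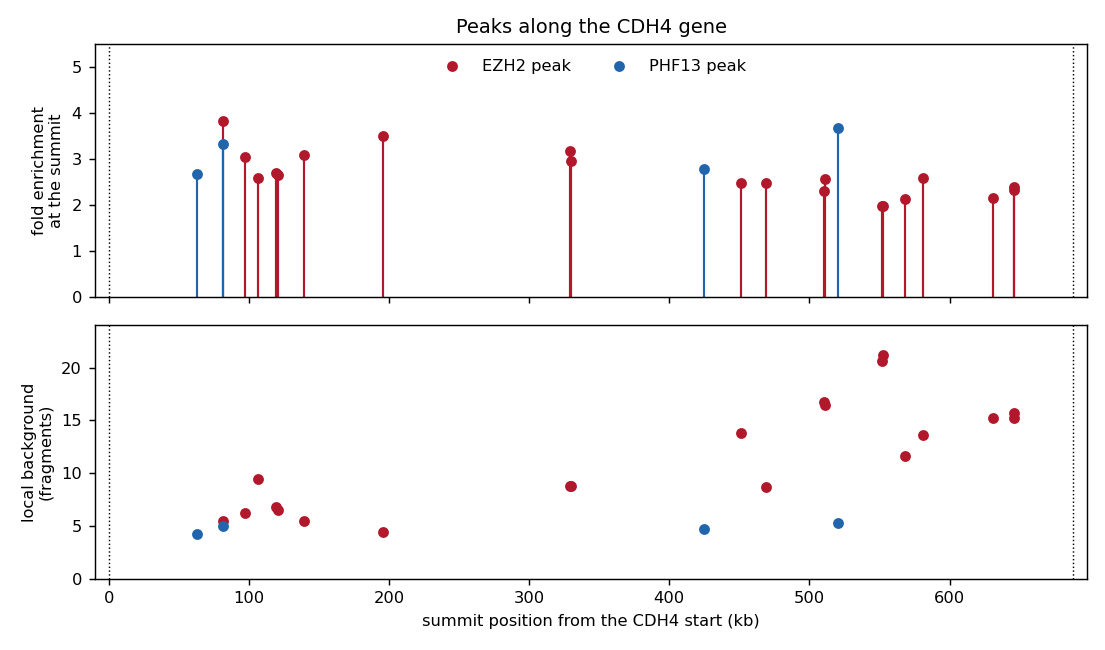
Peaks along the CDH4 gene by summit position from its start in kb; the upper panel gives the fold enrichment and the lower panel the local background in fragments, for 20 EZH2 (red) and 4 PHF13 (blue) peaks, with dotted lines at the ends of the gene. The EZH2 background has the higher median in the second 50% of the gene, where the fold enrichments stay at or below 2.59, and 1 EZH2 and 1 PHF13 peak coincide at 81.3 kb.

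PHF13 was found at CDH1, CDH3 and CDH4 only within introns, away from the main starts. In CDH1 the peak with the higher value, chr16:68823936-68824156, lay 52.8 kb inside the gene, with 4.03-fold enrichment, -log10 q 4.94 and 21 fragments (13.0 to 32.1). It stood above 69.0% of the PHF13 list. The second, chr16:68831874-68832064, which made CDH1 count as a gene with PHF13 near a TSS, was weaker, with 3.25-fold enrichment, -log10 q 2.48 and 16 fragments (9.15 to 26.0).

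That second CDH1 peak lay 3579 bp from the start of a transcript annotated for nonsense-mediated decay and 60.8 kb from the main start. It was also the single multi-copy peak among the 33 EZH2 and 7 PHF13 peaks at these genes. The median 24-mer at its summit occurred 16 times in the genome and the most frequent 71229 times. With single-copy peaks, with starts of protein-coding transcripts, or with a -log10 q of at least 3, the number of the 8 genes with PHF13 near a start was 0. Under these settings the share of all protein-coding genes was 18.1%, 17.7% and 14%. CDH1 was annotated with 10 starts, and among all protein-coding genes with 10 or more starts 31.6% had PHF13 within 5 kb, against 13.3% of those with 1 to 3.

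In CDH3 the PHF13 peak was chr16:68693097-68693241, 145 bp long and 13557 bp from a TSS, with 3.83-fold enrichment, -log10 q 4.05 and 19 fragments (11.4 to 29.7). The nearest EZH2 peak was the narrower of the start pair, 13101 bp away. At CDH1 the PHF13 and EZH2 peaks were further apart, 51931 bp for the stronger PHF13 peak. The PHF13 peaks of both epithelial cadherins thus lay apart from EZH2, as did most of the PHF13 list, of which 11.7% overlapped an EZH2 peak.

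In CDH4, PHF13 and EZH2 met at a single intronic site. The PHF13 peak chr20:59908587-59908768 had 3.32-fold enrichment, -log10 q 3.09 and 19 fragments, and the EZH2 peak chr20:59908538-59908687 had 3.83, 5.72 and 24. They shared 101 bp, with summits 5 bp apart, and the EZH2 peak was the strongest of the 20 in the gene. This was the 1 of 7 PHF13 peaks near a start or in a gene body that overlapped EZH2, a share near that of the whole PHF13 list, 11.7%. In 200 bp at either summit 3 E-boxes were found, and 18.8% of PHF13 and 20.9% of EZH2 windows of that length held any. Over the 8 genes, 2 of the 7 PHF13 peaks and 6 of the 33 EZH2 peaks held any. The other PHF13 peaks of CDH4 had -log10 q of 1.39, 1.70 and 4.42.

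The remaining genes had PHF13 only at a distance. EPCAM had its closest PHF13 peak 15657 bp from a TSS, beyond the end of the gene at chr2:47616571-47616788, with 2.80-fold enrichment and -log10 q 2.43. It lay wholly within an EZH2 peak of 344 bp with 2.96-fold enrichment and -log10 q 3.32, their summits 123 bp apart. For CDH2, CDH5 and CDH6 the closest PHF13 peak was 126324 bp, 121431 bp and 121885 bp from a TSS, with -log10 q of 5.32, 5.97 and 1.67, the last a peak in an intron of DROSHA and the one of CDH5 in TK2. The summit windows of the CDH2 and CDH5 peaks each held an AP-1 site, as did 11.2% of PHF13 windows of 200 bp.

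CDH11 had no PHF13 peak within 150 kb. The closest was 1390774 bp away, and 97.7% of protein-coding genes had one nearer. It was the same peak as that of CDH5, whose gene lies 1.24 Mb from CDH11 on chromosome 16. Over all protein-coding genes the median distance was 35999 bp to PHF13 and 34292 bp to EZH2, so CDH2, CDH5, CDH6 and CDH11 were each farther from PHF13 than the median gene while having EZH2 within 5 kb.

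**Figure D4:**
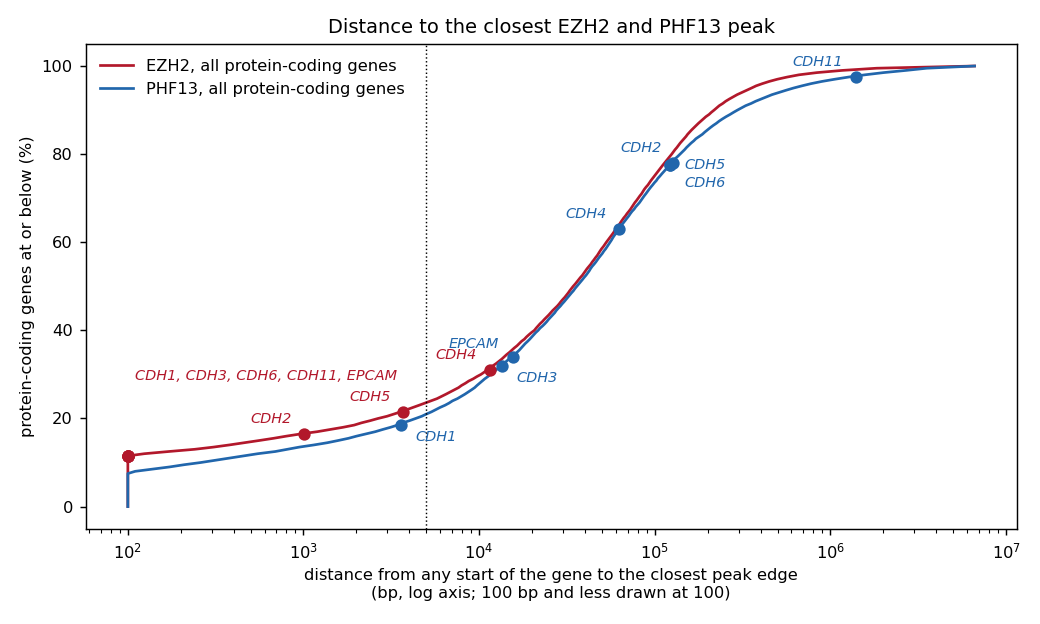
Distance in bp on a log axis from any start of a gene to the closest peak edge, as the cumulative percentage of all protein-coding genes, for EZH2 (red) and PHF13 (blue); points mark the 8 genes on each curve and the dotted line marks 5 kb. For EZH2 5 genes lie at the left end and CDH4 is the only one right of the line, while for PHF13 CDH1 alone lies left of the line and CDH11 lies at 97.7%.

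Related adhesion genes were counted in the same way. Of 11 other classical cadherins, 2 had EZH2 near a start, CDH22 with a -log10 q of 25.5 and CDH20 with 3.50, and 0 had PHF13. Of 5 atypical cadherins, 3 had EZH2 and 1 had PHF13, and CDH23 had both. The share with EZH2 was thus 18.2% for the other classical cadherins and 60.0% for the atypical ones, beside the background of 23.6%, and no difference between lists was tested.

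Of 13 genes for catenins, the partners of cadherin tails, and nectins, a list that also held VCL and AFDN, 5 had EZH2. PHF13 was near a start in 6 of the 13, the highest PHF13 share of the lists at 46.2%. CTNND1, p120-catenin, had the highest PHF13 value with a -log10 q of 10.9, and CTNNA3 and AFDN had both peaks. Many catenin genes carry many annotated starts, with 48 for CTNNB1. Of 13 desmosome genes, which anchor keratin filaments, 4 had EZH2 and 3 had PHF13. DSP had EZH2 with a -log10 q of 24.9, PKP3 had PHF13 with 12.7, and PKP2 had both.

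Of 12 tight junction genes 2 had EZH2, with TJP1 at 39.7, and 4 had PHF13, with both at OCLN. Of 14 other epithelial genes 8 had EZH2, 57.1% against 23.6%, and 3 had PHF13. They included OVOL1 with a -log10 q of 36.5 and MAL2 with 22.0, and the membrane protease gene ST14 had both, EZH2 with 23.9 and PHF13 with 7.97. EZH2 near a start was thus above the background share in this list of other epithelial genes, as a count and without a test. The share was below the background for the tight junction genes, at 16.7%, and was 30.8% for the desmosome genes.

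**Figure D5:**
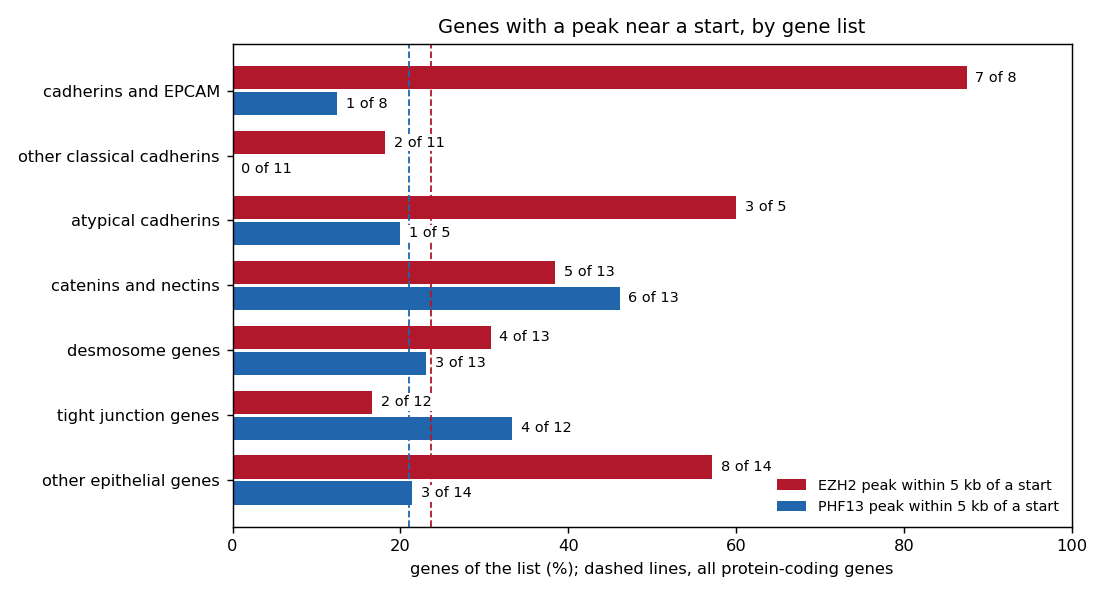
Percentage of genes of each list with an EZH2 (red) or PHF13 (blue) peak within 5 kb of a start, with the numbers of genes beside the bars and dashed lines at 23.6% and 21.0% for all protein-coding genes. The cadherins and EPCAM have the longest EZH2 bar, 7 of 8, and a short PHF13 bar, 1 of 8, and the catenins and nectins have the longest PHF13 bar, 6 of 13.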

How the data were processed

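The files were 2 narrow peak lists, 1 per antibody, each called by the authors against the input on hg19. Per the submitters' processing notes and the study's methods, Trim Galore 0.4.1, Bowtie2 2.4.1, Picard and MACS2 2.2.7.1 were used, and deepTools 3.5.0 is listed. The deposited columns hold fold enrichment (a ratio to local background), the -log10 p-value and the -log10 q-value at the summit. Both lists start at a -log10 q of 1.30, whereas the methods state a stricter limit for PHF13, -log10 q of 3, and broad peaks for EZH2; the lists were used as deposited. The peak lists hold no read totals, so depth enters through the fragments at each summit.

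From fold and p-value, fragments at the summit and the local background were solved (relative tolerance 0.0001, 100% of peaks). GENCODE 44 lifted to GRCh37 gave genes and starts; the main start is that of the canonical transcript. Copy number was the median genomic count of 24-mers in 100 bp at the summit, composition was read in 500 bp and motifs in 200 bp, with pysam 0.24.0, numpy 2.4.6 and pandas 2.3.3. Distances, fragments and copy counts were checked on simulated data. All 8 members were named with each peak near a start, the strongest other gene-body peak and the closest peak; in related lists, genes with both peaks or among the 3 highest. Some peak sequences are not reported here. Members and lists were chosen with earlier results of these data known. Alternatives were the peak threshold, distance, choice of starts, summit distance, overlap and copy number.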

Additional observations from a re-analysis of the deposited data

How the results depend on the processing

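Of 41 alternative values, 23 stayed within 1.5 times of the main one. The number of the 8 genes with EZH2 near a start was 6 at a -log10 q of at least 3 and 5 at 5 or more, 5 within 1 kb, and 5 with the gene record's start, where the share of all protein-coding genes was 19.8%, 14.3%, 16.6% and 18.7%. The numbers with PHF13 and with both fell from 1 to 0 at either threshold, within 1 kb and with the gene record's start. They also fell to 0 with protein-coding starts, with single-copy peaks and with the canonical start, an alternative chosen after seeing the data. All rest on 1 multi-copy peak in CDH1. Under these settings the share of all protein-coding genes with PHF13 fell as well, from 21.0% to between 6.62% and 18.1%. The share with both fell from 5.33% to between 1.21% and 3.81%. The lowest shares were those at a -log10 q of at least 5. The fall of 1 gene was not tested. EZH2 peaks at the genes fell from 33 to 21 and 10 at the 2 thresholds, which 70.7% and 35.8% of all EZH2 peaks passed, and PHF13 peaks from 7 to 4 and 0, where 62.2% and 30.4% of the list passed. Among these 7 PHF13 peaks, the number sharing a site with EZH2 was 1 under each overlap setting and at a -log10 q of at least 3. No paired analysis was possible because each antibody had 1 library, so no library could be left out. The CDH1 PHF13 peak near a start rested on 16 fragments over a background of 4.23.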

Other observations

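The wider neighbourhoods held further peaks that no gene count above used. Downstream of CDH5, 60.6 kb from its start, lay an EZH2 peak with a -log10 q of 30.6 and a fold enrichment of 4.34. The peak near the start of CDH5 itself had 1.69. The downstream peak lay outside CDH5, whose body ends 38.1 kb from its start, and its link to any gene was not tested. Upstream of EPCAM, 4 PHF13 peaks had summits at -144 to -96.8 kb from the main start, the highest with a -log10 q of 7.30, where the median protein-coding gene had 2 within 150 kb on both sides together.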
